A study of Mus musculus with 56 samples.

Results

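Crip2, Gng13, Nacad, Psrc1 and the cDNA AK156771 are 5 of the 30199 gene names on the non-control probes of the arrays, and were selected on measured values, because their signal was higher in 90Sr-injected mice than in control mice on every day of sampling. The values that chose them are the differences between both kinds of mice at each day, so those differences are given here as a description, with no test. Of 14579 genes tested at all 5 days, 6 (0.0412%) were called higher on every day, where a call is an unadjusted p under 0.001 in limma and a change of at least 2-fold. The sixth was Mt2, metallothionein 2, a small metal-binding protein.

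The blood came from C57BL/6 mice, received at 10 to 12 weeks of age and quarantined for 14 days. The 90Sr groups were injected into the tail vein with 200 kBq of 85/90SrCl2, and the control groups received the saline vehicle per the study's methods. About 0.4 mL of whole blood was taken by cardiac puncture at day 4, 7, 9, 25 or 30, and globin transcripts were reduced before labeling. Each mouse gave 1 array, with 4 mice in each group at day 4 and 6 mice in each group at the later days, 28 control and 28 90Sr-injected mice in all. The blood was not sorted, so a change in signal from fewer cells of a type and one from less RNA per cell cannot be told apart. The study counted cells on blood smears by hand and reported that irradiated mice did not differ significantly from controls on any day.

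Strontium follows calcium into bone, where the beta particles of 90Sr and of its daughter yttrium reach the marrow that forms blood cells. Crip2 is a LIM domain protein best known from heart and vascular smooth muscle. Gng13 is a gamma subunit of heterotrimeric G proteins, known as the partner of the alpha subunit gustducin in taste cells. Nacad carries the domain of Naca, the alpha subunit of the complex that binds new polypeptides at the ribosome. Psrc1 is a microtubule-binding protein of the mitotic spindle and a known transcriptional target of p53, the DNA damage factor. AK156771 is a full-length cDNA cloned from activated spleen, and the array annotation calls its product unclassifiable.

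Each gene was read by 1 probe of 60 bases. In the mm9 positions of the array files, the Crip2 probe lies at chr12:114383655-114383714, the Gng13 probe at chr17:25855911-25855970, the Psrc1 probe at chr3:108190744-108190803 and the AK156771 probe at chrX:8828083-8828142. The Nacad probe spans 294 bases of the genome, chr11:6498603-6498896, which is longer than the probe. The Crip2 and Psrc1 probes both contain the polyadenylation signal AATAAA; the other 3 do not, and their sequences are shown because each level given here rests on that single stretch of transcript.
Gng13: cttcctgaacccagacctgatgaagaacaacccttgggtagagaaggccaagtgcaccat
Nacad: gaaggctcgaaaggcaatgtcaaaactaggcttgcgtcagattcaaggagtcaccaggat
AK156771: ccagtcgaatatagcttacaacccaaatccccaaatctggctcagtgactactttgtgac

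The accessions of 4 of the 5 genes matched a RefSeq gene. The 250 bases before the start of Crip2 (GRCm38.p6 chr12:113139986-113140235, + strand) and of Nacad (GRCm38.p6 chr11:6606055-6606304, - strand) are shown because they share a stretch, in capitals, in which 12 of 14 bases were identical, the closest match of that length between both windows.
Crip2: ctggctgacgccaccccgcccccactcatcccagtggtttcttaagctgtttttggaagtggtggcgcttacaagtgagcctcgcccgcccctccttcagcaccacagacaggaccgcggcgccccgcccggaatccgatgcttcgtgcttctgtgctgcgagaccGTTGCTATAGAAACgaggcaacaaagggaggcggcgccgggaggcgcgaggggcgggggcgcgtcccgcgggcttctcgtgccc
Nacad: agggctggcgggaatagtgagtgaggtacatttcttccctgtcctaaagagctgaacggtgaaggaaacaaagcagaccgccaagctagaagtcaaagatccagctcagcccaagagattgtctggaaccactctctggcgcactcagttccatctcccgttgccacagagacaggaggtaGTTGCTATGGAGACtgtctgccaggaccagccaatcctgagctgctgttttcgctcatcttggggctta
The pattern built from that stretch was GTTGCTATNGANAC, which resembles the X-box bound by RFX factors. It begins 84 bases before the start in Crip2 and 69 bases before it in Nacad. Searched on both strands, it was found in 9 of 32851 RefSeq windows of the same length (0.0274%), a share that counts the windows it was built from. It was not found in the windows of Gng13 or Psrc1 or in that of another Crip2 start. The p53 decamer motif, searched by name on both strands, was found in 1 window of Gng13, 123 bases before the start, and in 7.13% of all windows. No such motif was found in either Psrc1 window. A match describes the letters of the window and was not tested as a site.

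The arrays differed in brightness between the groups. The median raw signal of a 90Sr array was lower than that of a control array by 0.59 to 0.94 on the log2 scale at the 5 days, and 14389 to 22524 spots were well above background on the 90Sr arrays against 17809 to 24698 on the control arrays. Levels below are log2 processed signal minus the median of the array, so they are relative to the typical probe of that array. Before this scaling, the signal of the 5 genes was higher in the 90Sr mice in 25 of 25 comparisons, by 0.36 to 1.51 on the log2 scale. These are the differences that chose the genes, without the array median taken off, so they are no separate evidence. Each of the 14 slides carried 4 arrays. For day 4, slide and group cannot be told apart, while 1 slide at each later day held 2 control and 2 90Sr arrays. The 90Sr arrays of replicates 2 to 5 at day 7 and 3 to 6 at day 30 were scanned on dates with no control array.

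**Figure D1:**
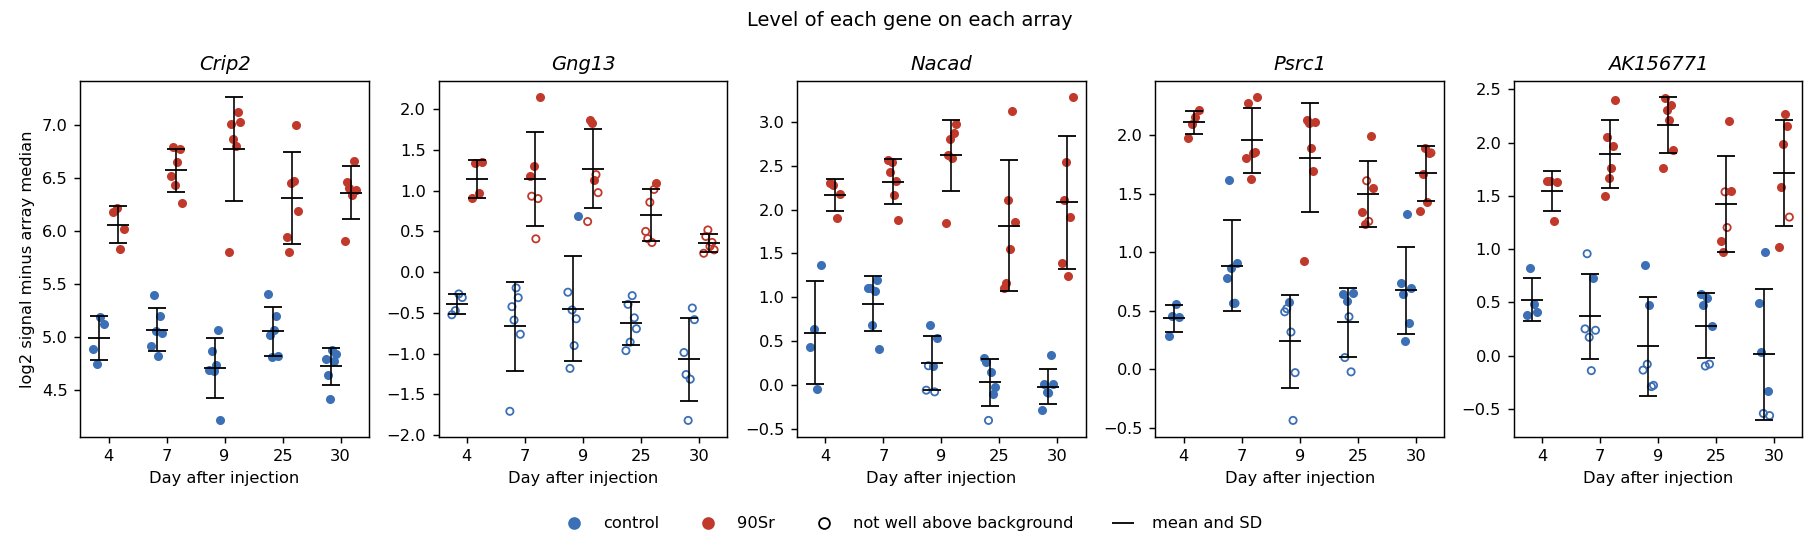
Level of each of the 5 genes on each of the 56 arrays, as log2 processed signal minus the array median, against the day after injection, with control mice in blue, 90Sr-injected mice in red, and the group mean and SD in black. Open circles are spots not well above background. The groups separate in every panel and day except for Gng13 at day 9, and open circles are most frequent in the Gng13 panel.

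Crip2 was well above background on 56 of 56 arrays and was the only one of the 5 genes of which this held. At day 4 its level was 4.89, 4.75, 5.19 and 5.13 in the control mice and 6.18, 6.22, 5.83 and 6.02 in the 90Sr mice. At day 9 the lowest, median and highest levels were 4.22, 4.72 and 5.07 in control mice and 5.80, 6.94 and 7.12 in 90Sr mice. All 90Sr mice lay above all control mice at each day. The log2 differences between the groups were 1.07 ± 0.17, 1.501 ± 0.145, 2.06 ± 0.25, 1.26 ± 0.22 and 1.64 ± 0.20 on the 5 days in turn (SE; 4 mice a group at day 4 and 6 later), or 2.1-fold to 4.17-fold. Over all 28 control mice the level ran from 4.22 to 5.41, and over the 28 90Sr mice from 5.80 to 7.12, so the groups did not overlap across days either. This follows largely from the choice, and no share over all genes is given beside it. Without control replicate 2 of day 4, the day 4 difference was 0.99, under the 2-fold threshold.

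Gng13 was well above background on 12 of 56 arrays, the fewest of the 5. At day 4 its level was -0.52, -0.47, -0.27 and -0.31 in the control mice and 0.91, 1.34, 0.98 and 1.35 in the 90Sr mice. None of these control spots and all 4 of the 90Sr spots were well above background, and the measured difference was 2.9-fold. At days 7 and 25 no control spot was well above background either, while 3 and 1 of the 6 90Sr mice were. With the control level set no lower than the dimmest signal well above background on each array, the differences were 1.99-fold and 1.83-fold. At day 4 that floor left the 2.9-fold unchanged. The 90Sr levels were used as measured, dim ones included, so these folds are not strict lower bounds.

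At day 9 Gng13 ranged from -1.18 through a median of -0.52 to 0.69 in the control mice and from 0.62 through 1.17 to 1.86 in the 90Sr mice. The highest control mouse lay above the lowest 90Sr mouse, the only overlap among the 25 comparisons, and 1 control and 3 90Sr spots were well above background. At day 30 no spot of either group was well above background, and the group means of -1.07 and 0.36 give no fold. The call of Gng13 at day 30 therefore rests on dim signal on both sides.

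Nacad had the largest differences of the 5 genes at days 9, 25 and 30. At day 4 its level was 0.43, 0.64, -0.05 and 1.37 in the control mice and 2.30, 2.28, 1.91 and 2.17 in the 90Sr mice. At day 9 it ranged from -0.08 through a median of 0.21 to 0.68 in control mice and from 1.85 through 2.72 to 2.98 in 90Sr mice. The differences were 1.57 ± 0.27, 1.39 ± 0.18, 2.37 ± 0.23, 1.79 ± 0.30 and 2.10 ± 0.30 on the 5 days in turn (SE), or 2.63-fold to 5.17-fold. The day 9 difference ranked 7 among 14580 genes ordered from the most to the least increased. The 90Sr mice were more scattered late in the study, from 1.104 to 3.12 at day 25 and from 1.25 to 3.28 at day 30, with SDs of 0.75 and 0.76 against 0.27 and 0.21 in the control mice. Nacad was well above background on 51 of 56 arrays. At day 9 this held for 3 of 6 control spots, so the 5.17-fold rests partly on dim control signal.

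Psrc1 moved the least of the 5 on average, with differences from 1.0 to 1.67 on the log2 scale. At day 4 its level was 0.28, 0.46, 0.56 and 0.45 in the control mice and 1.98, 2.10, 2.15 and 2.21 in the 90Sr mice, a clear gap with a difference of 1.67 ± 0.14 (SE). It was followed by 1.07 ± 0.20, 1.57 ± 0.26, 1.097 ± 0.20 and 1.0 ± 0.22 on the 4 later days. The gap between groups was narrow at days 7 and 30, where the highest control mouse lay at 1.62 and 1.33 and the lowest 90Sr mouse at 1.63 and 1.35. Psrc1 at day 30 is the value just inside the 2-fold threshold. It fell to between 0.91 and 0.99 without any 1 of control replicates 2, 3 and 5 or 90Sr replicates 3, 5 and 6 of that day, and the day 25 difference to 0.998 without 90Sr replicate 5. At day 7 it was 1.0 and no longer called without 90Sr replicate 6. Psrc1 was well above background on 44 of 56 arrays. At day 9 this held for 1 of 6 control spots, so that difference rests partly on dim control signal.

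AK156771 was well above background on 40 of 56 arrays. At day 4 its level was 0.38, 0.82, 0.48 and 0.41 in the control mice and 1.64, 1.64, 1.26 and 1.63 in the 90Sr mice. At day 9 it ranged from -0.29 through a median of -0.11 to 0.85 in control mice and from 1.76 through 2.26 to 2.42 in 90Sr mice. The differences were 1.02 ± 0.17, 1.52 ± 0.21, 2.08 ± 0.24, 1.14 ± 0.23 and 1.71 ± 0.31 on the 5 days in turn (SE), or 2.03-fold to 4.22-fold. Of the 6 control spots, 1 at day 7 and 2 at day 9 were well above background. The folds of those days, the 4.22-fold included, therefore rest partly on dim control signal. The lowest 90Sr mouse at day 30 was at 1.02 and the highest control mouse at 0.97. The day 4 difference was between 0.97 and 0.99, under the threshold, without any 1 of control replicates 1 and 4 or 90Sr replicates 1, 2 and 4 of that day, and the day 25 difference was 0.98 without 90Sr replicate 5.

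All 5 genes being called at each day follows from how they were chosen, and nothing is read from it. The share of all tested genes called higher was 2.8%, 3.47%, 5.44%, 7.48% and 19.7% on the 5 days in turn. Every 90Sr mouse lay above every control mouse for 19.5%, 9.96%, 5.56%, 9.69% and 15% of tested genes at those days. In the ordering of all genes by change, the 5 stood between ranks 7 and 198 at day 9 and between ranks 421 and 3715 at day 30. The 4 slides that held both groups give a subset of the values that chose the genes, and their directions follow largely from the choice. On them the 90Sr arrays were higher in 20 of 20 comparisons, with the 2 arrays of each group apart in 19 of 20. That separation follows largely from the choice too. The shares of all genes above are for all mice of a day and are not a background for 2 arrays a group. With the slide as a fixed block, which leaves few arrays to set the difference, 6 of 20 comparisons at the later days were called.

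Just outside the choice stood 36 genes called higher at 4 of the 5 days. Mt1, a second metallothionein gene, missed day 4 with a change of 1.05 and changed by 1.57 to 2.10 at the other days. Cox6b2, a testis form of a cytochrome c oxidase subunit, missed day 25 with 0.98, and Ctsf, a lysosomal cysteine protease, missed the same day with 0.92. Mmel1, a membrane metallopeptidase, and the cDNA D830030K20Rik missed day 4 with 0.84 and 0.81. Mt2 itself changed by 1.97 to 2.76, above the largest difference of any of the 5 genes at days 4, 7, 9 and 25, and was well above background on 56 of 56 arrays.

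The levels of the 5 genes over time were then compared within each kind of mouse. The choice of the genes did not use this contrast between days, but it used the same values, so these tests are not independent of it. In control mice Nacad differed between days, from 0.93 ± 0.31 at day 7 to -0.02 ± 0.21 at day 30 (SD, n = 6), with an adjusted p of 0.00938 in limma's F test across the 5 days. Psrc1 did too, with its highest mean of 0.88 at day 7 and its lowest of 0.24 at day 9 (adjusted p = 0.0408, limma). Crip2, Gng13 and AK156771 did not pass, with adjusted p of 0.176, 0.159 and 0.341 in limma. In the same test 48.2% of all genes passed, so 2 of 5 is near the background.

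In 90Sr mice Gng13 fell from 1.27 at day 9 to 0.36 at day 30, its lowest mean (adjusted p = 0.0154, limma). Its 90Sr spots were well above background on 3 of 6 arrays at day 9 and on 0 of 6 at day 30, so the fall ends in dim signal. Crip2 was lowest at day 4, with a mean of 6.06, and highest at day 9, with 6.77 (adjusted p = 0.0275, limma). Nacad, Psrc1 and AK156771 did not pass, with adjusted p of 0.0928, 0.0978 and 0.0656 in limma. Of all genes 40.9% passed, so 2 of 5 is near the background here too. With the slide as a random block, none of the 5 genes passed in either kind of mouse (adjusted p from 0.0706 to 0.544, limma). These day differences therefore cannot be told apart from differences between slides. No scan date held arrays of more than 1 sampling day, so they cannot be told apart from differences between scans either. Without replicate 1 of the 90Sr mice at day 9, or without replicate 5 at day 25, all 5 genes passed in 90Sr mice, and 1 passed without 90Sr replicate 3 of day 4 or replicate 2, 5 or 6 of day 9. In control mice Nacad alone passed without any 1 of 9 arrays, namely replicates 1, 2, 3 and 6 of day 7, 4, 5 and 6 of day 9, and 2 and 5 of day 25.

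**Figure D2:**
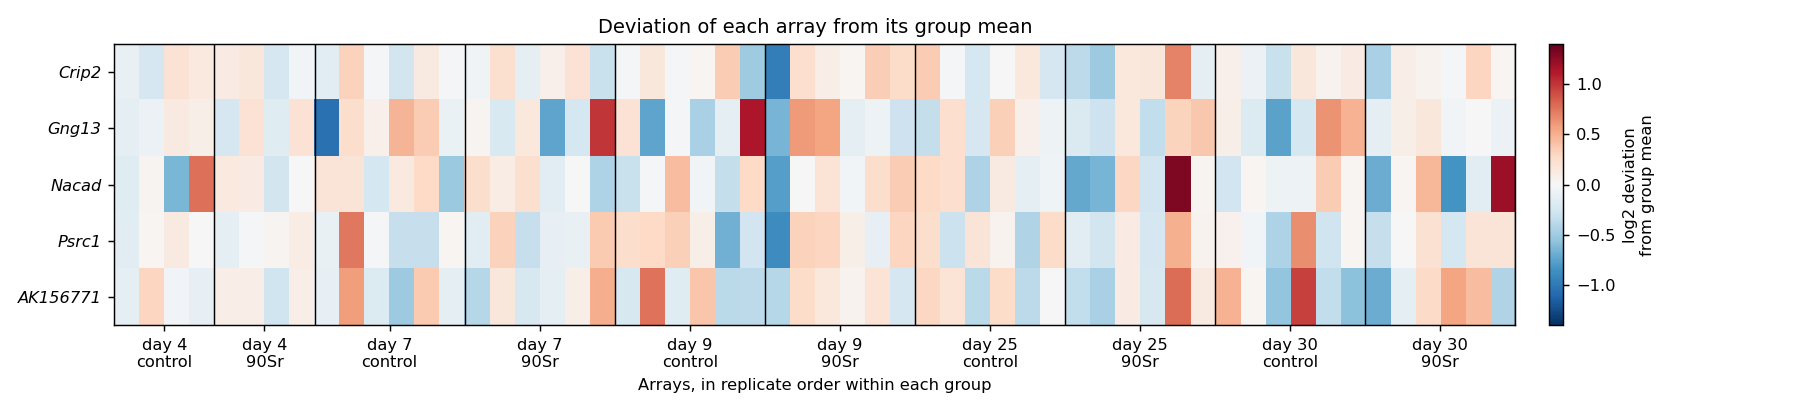
Deviation of each array from the mean of its group, in log2 units, with a row for each gene and a column for each array in the order of replicates within the 10 groups. Red is above and blue below the group mean. The first array of the day 9 90Sr group is below its group mean in all 5 rows, and the fifth of the day 25 90Sr group is above it in all 5.

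Mice of the same group were compared next, with each group mean removed. Over 56 arrays the highest correlation among the 10 pairs of genes was that of Psrc1 with AK156771 (Pearson r = 0.59, Spearman 0.54). Crip2 correlated with AK156771, Nacad and Psrc1 at r = 0.49, 0.49 and 0.48, and with Gng13 at 0.08. Without the 2 arrays farthest from the median, r was 0.56 for Psrc1 with AK156771, and 0.43, 0.31 and 0.29 for Crip2 with AK156771, Nacad and Psrc1. Within control mice alone, Crip2 correlated with Nacad at -0.02 and with Psrc1 at 0.24, and within 90Sr mice at 0.68 and 0.69. These are descriptions over arrays that share slides and scaling. Replicate 1 of the 90Sr mice at day 9 was the lowest of its group for all 5 genes, with 5.80 for Crip2 against 6.80 for the next lowest mouse. Without it, the day 9 differences were 2.25, 1.85, 2.52, 1.75 and 2.16 for Crip2, Gng13, Nacad, Psrc1 and AK156771, against 2.06, 1.72, 2.37, 1.57 and 2.08 with it.

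Likeness over the 10 group means largely reflects the difference between 90Sr and control mice that chose the 5 genes, so high values among genes raised in 90Sr mice follow from the choice. The genes whose 10 group means followed those of Crip2 most closely were AK156771 (r = 0.99) and Mt2 (r = 0.99). For Gng13 they were Cox6b2 (r = 0.98) and Icam4, an erythroid adhesion molecule (r = 0.97). For Nacad they were Gm6531 and the poly(A)-binding protein gene Pabpc1 (both r = 0.99), and for Psrc1 Gm4802 and 2410066E13Rik (both r = 0.98). For AK156771 they were Crip2 and the non-coding RNA 9430076G02Rik (both r = 0.99). Within groups, over 56 arrays, the highest r was 0.87 for Crip2 with BC056474, 0.54 for Gng13 with A830010M20Rik, 0.63 for Nacad with Ptp4a3, 0.78 for Psrc1 with Atp5h and 0.72 for AK156771 with Ttc39a. The next highest were Serinc3 for Crip2 (0.86), Krt74 for Gng13 (0.51), COX1 for Nacad (0.62) and 1 unannotated probe each for Psrc1 (0.78) and AK156771 (0.70).

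Markers of red cells moved with several of these genes. Of 17 erythroid and reticulocyte markers measured, 17 had a positive mean change, and of the 14 tested 0, 1, 11, 0 and 11 were called higher on the 5 days in turn, against 2.8%, 3.47%, 5.44%, 7.48% and 19.7% of all tested genes. Ahsp, the hemoglobin alpha chaperone, changed by 0.61 to 1.403 and the Rh antigen gene Rhd by 0.56 to 1.51. The mean level of the list ran from 6.81 to 7.88 in control mice and from 7.64 to 8.71 in 90Sr mice, and 15 of 17 markers were well above background on all 56 arrays. With group means removed, the list correlated with Crip2 at r = 0.84 (Spearman 0.78; 0.74 within control mice, 0.89 within 90Sr mice and 0.78 without the 2 arrays farthest from the median). It correlated with Psrc1 at 0.60, AK156771 at 0.52, Nacad at 0.50 and Gng13 at -0.01. Replicate 1 of the 90Sr mice at day 9 was also the lowest of its group for the list, at 7.73 against 8.29 to 8.71. On the spike-in probes, where the median change of all tested genes was between -1.92 and -0.39, 14 of 17 markers had a negative mean change. The part of red cell RNA in the differences of the 5 genes was not tested.

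**Figure D3:**
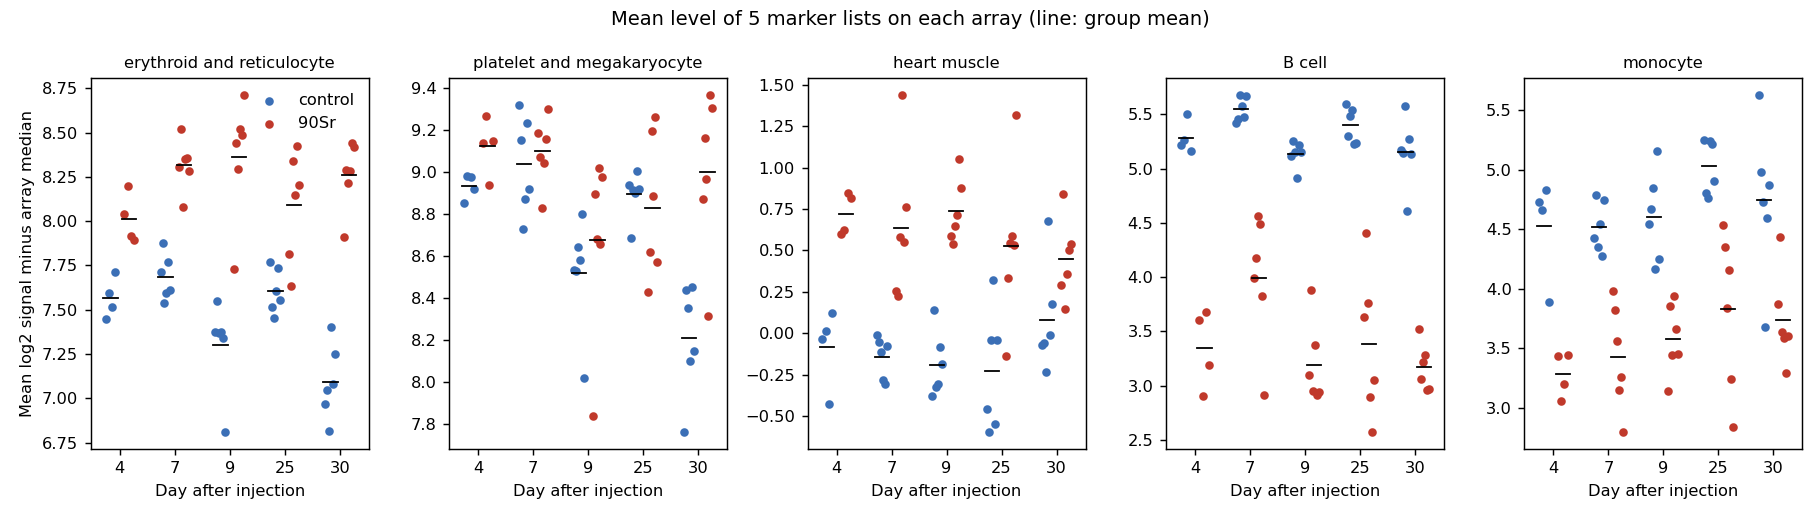
Mean log2 signal relative to the array median of 5 lists of cell type markers on each of the 56 arrays, by day, with control mice in blue, 90Sr mice in red and the group mean as a line. The erythroid list is higher in 90Sr mice, with overlap at day 25. The platelet groups overlap at every day, and the B cell list is lower in 90Sr mice with no overlap.

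Lists of other cell types moved differently. All 18 platelet and megakaryocyte markers had a positive mean change. Only 4 of them varied enough to be tested, none of the 4 was called at any day, and the median daily changes at days 4, 7, 9 and 25 were between -0.07 and 0.15, with 0.79 at day 30. Within groups the platelet list correlated with Crip2 at 0.59 and with Nacad at 0.50. Of 12 heart muscle markers, relevant to blood drawn from the heart, 8 passed the detection filter and all 8 had a positive mean change. Of 7 tested, 3 were called higher on at least 1 day, against 28.5% of all tested genes. These were Pln, the phospholamban gene, and Tnnt2, cardiac troponin T, at 2 days each, and Nppa, the atrial natriuretic peptide gene, at 1 day. Pln was well above background on 0 of 56 arrays, Tnnt2 on 9 and Nppa on 45, so the calls of Pln and Tnnt2 rest on dim signal. The list was dim, with 7 of 12 markers well above background on fewer than 28 arrays and 2 on none, and its mean level ran from -0.60 to 0.68 in control mice and from -0.14 to 1.44 in 90Sr mice. The 8 endothelial markers detected of 12 listed had positive mean changes, 6 of them were tested, and none of the 6 was called. Without scaling, where the median of all tested genes was also negative, all 8 endothelial, all 18 platelet and 4 of the 8 heart muscle mean changes were negative. The endothelial list reached from 2.66 to 4.04 in control mice and from 3.24 to 4.50 in 90Sr mice, with 2 markers well above background on no array. None of the 5 genes correlated with the heart muscle list above 0.24.

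The samples are labelled as blood, and 9 of 14 B cell, 12 of 15 T cell and 17 of 18 platelet markers were well above background on all arrays. Of the B cell markers, 11 of 14 were called lower on every day, among them Ebf1 with changes of -3.20 to -2.27, and of 10 monocyte markers 8 were called lower on at least 1 day and 3 on every day, namely the chemokine receptors Ccr2 and Cx3cr1 and Ly6c1. Cd68 and Treml4 were called at no day. Over all tested genes 8.4% were called lower at every day. Of 12 T cell markers tested 4 were called lower and 1, Cd8b1, higher on at least 1 day. Of 9 NK cell markers tested 2 were called lower on at least 1 day, as were 3 of 12 neutrophil markers. Over all tested genes 34.4% were called lower and 28.5% higher on at least 1 day. The T cell, NK cell and neutrophil counts do not exceed those shares. On the 75th percentile no T cell, NK cell or neutrophil marker was called lower and 3 T cell markers were called higher, while 10 of 14 B cell markers were still called lower on every day.

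Relatives of the 5 genes and the other genes of their pathways were counted from lists. Of the LIM and cysteine-rich protein genes, 22 were listed, 18 detected and 10 tested. None was called higher on any day and 6 were called lower on at least 1 day, against 28.5% of all tested genes called higher and 34.4% called lower on at least 1 day. The share of all tested genes called lower was 23.1%, 16.1%, 17.9%, 26.5% and 21.3% on the 5 days in turn, and of the 10 genes tested here 5, 5, 4, 6 and 6 were. Crip1, a close relative of Crip2, fell on every day, by 1.01 to 2.01 on the log2 scale (adjusted p at most 0.00213, limma). The LIM-only gene Lmo4, the paxillin relative Lpxn and Pdlim2 were also called lower on every day, with mean changes of -1.37, -1.36 and -1.29. With the 75th percentile as the scale these 4 genes remained negative at every day, but Crip1, Lpxn and Pdlim2 were called at 1 day each and Lmo4 at 2, and 2 genes of the list were called higher on at least 1 day.

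Of 16 G protein beta and gamma subunits, 10 were tested, and 3 were called higher and 3 lower on at least 1 day. With 28.5% of all tested genes called higher and 34.4% lower on at least 1 day, these counts are near the background. Gng10 and Gngt2 fell on every day, by 1.53 to 2.21 and by 1.24 to 1.72 on the log2 scale (adjusted p at most 0.000755, limma). Gnb3, a beta subunit that pairs with Gng13 in taste cells, was called higher at 2 days but was well above background on 0 of 56 arrays. Of 9 taste signaling genes, 5 were detected and tested. The inositol trisphosphate receptor Itpr3 fell on every day, by 1.22 to 1.71, and was the only one called lower. On the other side, 3 were called higher on at least 1 day, the phospholipase Plcb2 at 2 days and the channel gene Calhm1 and the taste receptor Tas1r3 at 1 day each. Gnat3, which encodes gustducin, and the channel gene Trpm5 did not pass the detection filter. On the 75th percentile 5 of the G protein subunits were called higher and 2 lower, while Gng10 was called lower at every day on all 7 scalings.

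Of 17 genes of the nascent polypeptide-associated complex and of ribosome-bound chaperones, 14 were tested, and 2 were called higher and 7 lower on at least 1 day. The shares over all tested genes were 28.5% and 34.4%. Naca was detected but varied too little to be tested, with changes of -0.78 to -0.27, and its partner Btf3 likewise, with -0.22 to 0.42. The methionine aminopeptidase Metap1 and the chaperone gene Hspa14 were called lower at every day, with mean changes of -1.29 and -1.23. The median change of the list was between -0.78 and -0.60 at the 5 days, while that of all 18796 detected genes was between -0.10 and 0.12. On the 75th percentile Metap1 was called at 2 days and Hspa14 at none, with changes of -1.05 to -0.75 and -0.99 to -0.75.

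Of 30 mitotic spindle and microtubule genes, 23 were detected and 19 tested, and 8 were called higher and 2 lower on at least 1 day. The shares of all tested genes were 28.5% higher and 34.4% lower on at least 1 day. Calls higher fell mainly on days 9 and 30, with 8 and 6 of the 19 genes, against 5.44% and 19.7% of all tested genes. Cyclin B2, Ccnb2, was called higher at 4 days with changes of 0.77 to 1.61, and the spindle kinesin Kif2c at 2 days with 0.87 to 1.63. The median change of the list was 0.80 at day 9 and 0.77 at day 30, against 0.28 at days 4 and 7. Of 28 p53 target genes, 15 were tested, with 2 called higher and 9 lower on at least 1 day, beside the same 28.5% and 34.4%. Cdkn1a, the p21 cell cycle inhibitor, was called higher at 4 days with changes of 0.15 to 1.99, and was well above background on 11 of 56 arrays. Pmaip1, a p53-induced cell death gene, was called lower at 4 days with a mean change of -1.51, and at 1 day on the 75th percentile. Without scaling, where the median change of all tested genes was between -1.16 and -0.68, 10 of 23 mitotic genes had a positive mean change against 18 on the array median.

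**Figure D4:**
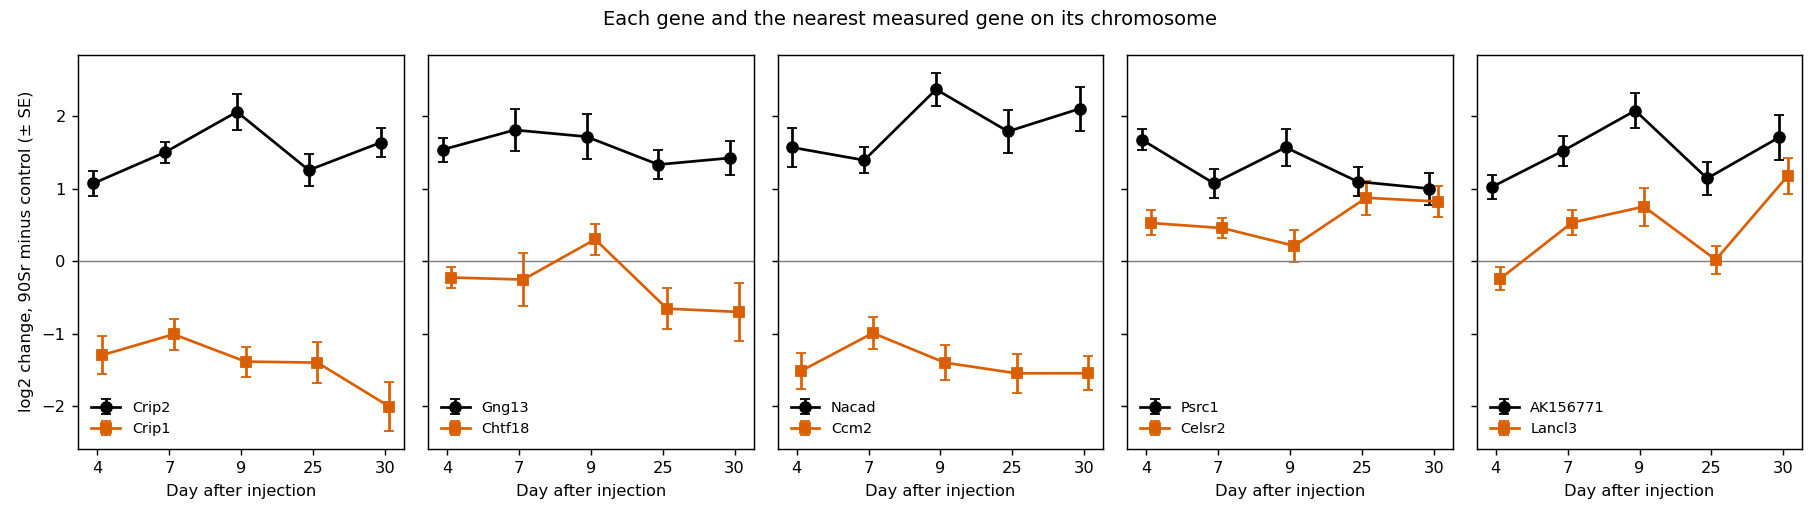
Log2 change of each of the 5 genes (black) and of the nearest gene with a detected probe on its chromosome (orange), by day, with the SE from limma. Crip1 and Ccm2 lie below 0 at every day, between -2.01 and -0.99, while Crip2 and Nacad lie above it.

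Genes beside the 5 on the chromosome were compared as well. The Crip1 probe lies 8315 bases from that of Crip2, and the pair moved in opposite directions at each day. The Crip1 level in control mice was 8.76 ± 0.51 at day 4 and 9.32 ± 0.82 at day 30 (SD, n = 4 and 6), and in the 90Sr mice it was 7.46 ± 0.29 and 7.31 ± 0.38. The probe of Chtf18, a replication factor subunit, starts 8 bases from that of Gng13. It was not called at any day, with changes of -0.70 to 0.30. Ccm2, which lies 1862 bases from Nacad and is known from cerebral cavernous malformations, was called lower at days 4, 9, 25 and 30, with changes of -1.55 to -1.401, and changed by -0.99 at day 7.

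Celsr2, 3293 bases from Psrc1, and Sort1, 26336 bases from it on the other side, were not called at any day, with changes of 0.21 to 0.87 and -0.15 to 0.77. All 4 detected genes within 100000 bases of AK156771 were called higher on at least 1 day, against 28.5% of all tested genes. The nearest, Lancl3, at 6944 bases, was called at day 30 with a change of 1.17 ± 0.24 (SE). Xk, which encodes a red cell membrane protein, lies 60092 bases away and was also called at day 30, with 1.42. At that day 19.7% of all tested genes were called higher. Within the same distance, 0 of 5 tested genes by Crip2, 1 of 8 by Gng13, 1 of 8 by Nacad and 1 of 4 by Psrc1 were called higher on any day. Scaled on the reference array, Lancl3 was called at no day.

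**Figure D5:**
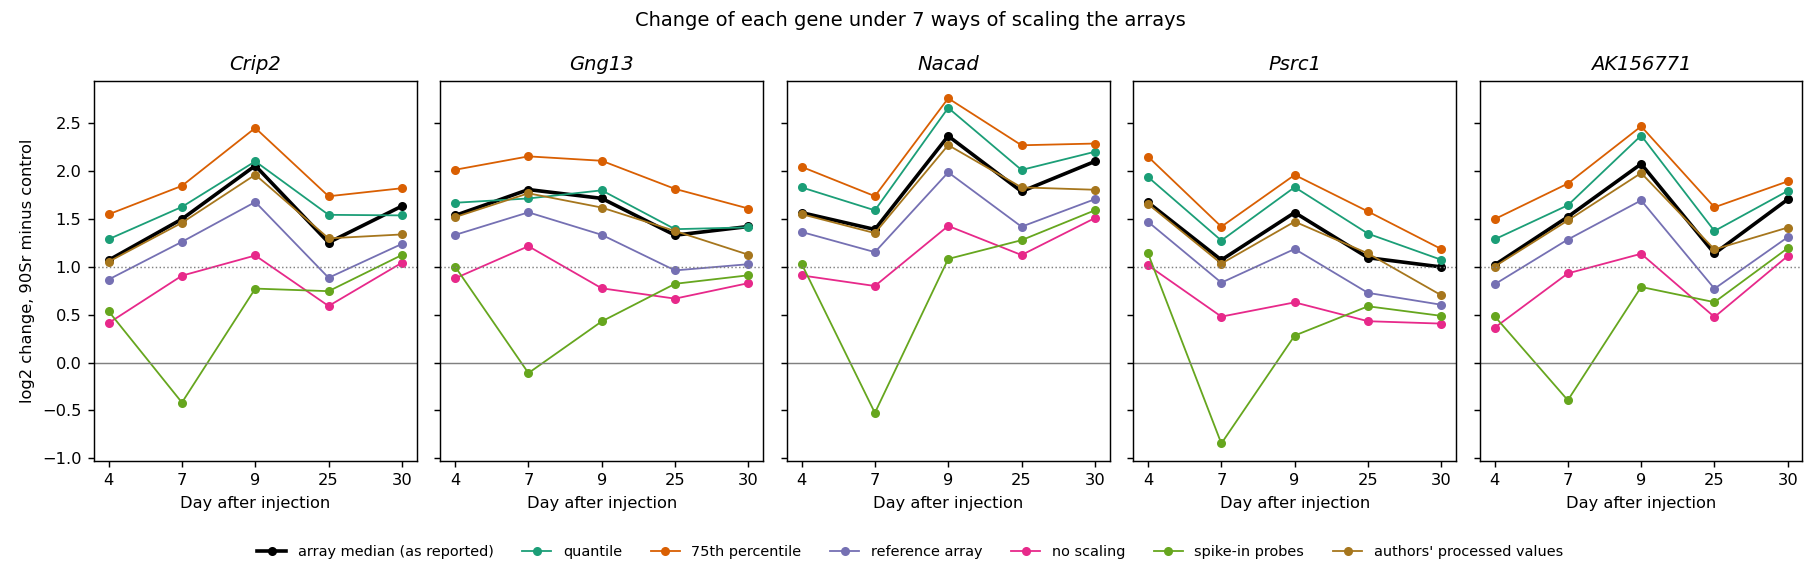
Log2 change of each of the 5 genes by day on the 7 scales named in its legend, as lines, with the dotted line at a 2-fold change. Of the lines drawn, that of the 75th percentile is the highest in every panel, and the spike-in line falls below 0 at day 7 in all 5.

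The size of the differences rested on the scaling. On the array median, the 75th percentile, the median of probes detected on all arrays or quantile normalization, 25 of 25 differences were positive and called. With the median difference from 1 reference array, 25 of 25 were positive and 17 called, and with the authors' processed values 25 were positive and 24 called. Scaled on the spike-in probes, 20 of 25 were positive and 3 called, and all 5 genes were lower in the 90Sr mice at day 7, by 0.11 to 0.85, on a scale where the median of all tested genes was -1.92 at that day. With normexp background correction and an offset of 50, Crip2 was 0.49 lower in the 90Sr mice at day 4, and it was the only one of the 5 genes left by the filter on variation.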

How the data were processed

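Whole-blood RNA of 56 mice was hybridized to one-color Agilent whole mouse genome arrays. The deposited intensity is the processed signal of each spot, which the authors obtained with Agilent Feature Extraction (version 10.7 in the submitters' processing notes, 11.5.1.1 in the file headers) after background correction and before scaling between arrays; spot flags for quality come with it. A table of log2 values processed by the authors was deposited for the same arrays and served as an alternative.

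Control spots were left out, non-uniform spots were set missing, and log2 signals were averaged per probe and centered on the median of the 43020 non-control spots of each array. Probes that were non-uniform or failed to exceed background on at least 25% of arrays were removed (18796 genes remained), and a filter on variation kept probes lying 1.5-fold or more away from their own median in at least 20% of arrays (14580 genes). The brightest probe stood for a gene. Each day was fitted by itself with limma 3.58.1 in R 4.3.3, and days were compared by F tests in 1 fit of all 10 groups with Benjamini-Hochberg adjustment over all genes. The tests were checked on simulated data in which 200 of 14408 genes were changed by 2 on the log2 scale. Of these, 80.5% were called at day 4 and 93% to 95.5% at the later days. The F tests found 96% in control and 97.5% in 90Sr mice. Between 7 and 17 unchanged genes were called at a day. The simulated noise was independent between arrays, with no slide, scan or scaling difference. The check therefore says nothing of such differences, nor of changes near 2-fold. The number of arrays limits the precision. Each array came from a separate mouse per the study's methods. Replicate numbers were checked as pairs. The correlation of same-numbered mice was between -0.28 and 0.33 over 28 pairs and above 0.1 in 8. It was between 0.08 and 0.31 at day 4 and between 0.01 and 0.33 at day 30, with both signs at the other days. The numbers were not treated as pairs, and whether same-numbered mice shared any handling was not tested.

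The 5 genes, the gene lists and the tests were chosen with earlier results of these data known. Named besides the 5 genes were the other gene called higher at all 5 days, the 5 genes nearest to that, the 2 genes most like each of the 5 over group means and over arrays, genes of 6 pathway lists, and marker genes of 9 lists. Some list genes were tested on another of their probes than the brightest, where that did not pass the filter on variation. Probes are placed on mm9 as annotated by the manufacturer; promoter windows are RefSeq's on GRCm38.p6. Alternatives were other scalings, background corrections, filters, probe summaries, the methods' t-test, blocks for replicate number and slide, and each array left out.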

Additional observations from a re-analysis of the deposited data

Results flagged for a closer look

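In 5 of 50 combinations of gene and group, 1 mouse stood apart from the others of its group by Dixon's test at the 95% level, which chance gives in about 1 of 20 groups. Of these, 3 were the same mouse, replicate 1 of the 90Sr group at day 9. It was low for Crip2 (5.80), Nacad (1.85) and Psrc1 (0.92) on the log2 scale relative to the array median, and also the lowest for Gng13 (0.62) and AK156771 (1.76) without being set apart there. Its array lay on the slide that held both groups and had the highest median raw signal of its group (4.12). Replicate 2 of the control mice at day 7 stood apart for Psrc1 at 1.62, above the other mice of its group. Replicate 3 of the 90Sr mice at day 4 stood apart for AK156771 at 1.26, below the others.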

How the results depend on the processing

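The call of the 5 genes at each day rested on the scaling of the arrays, whose median change over tested genes moved from 0.04, 0.07, -0.17, 0.11 and 0.01 on the 5 days in turn on the array median to 0.72, 0.60, 0.46, 0.81 and 0.59 on the 75th percentile. Lower genes made up 89.2%, 82.3%, 76.7%, 78% and 51.9% of all calls on the median and 29.6%, 24.5%, 28.3%, 20.8% and 36.1% on the 75th percentile. Genes called higher, of the 5, numbered 3 for day 4, 1 for day 25 and 1 over all 5 days with a reference array, and with spike-in probes 2, 0, 0, 0 and 1 on the days in turn and 0 at all 5. On spike-in probes the day 7 changes reversed, to -0.42 for Crip2, -0.11 for Gng13, -0.53 for Nacad, -0.85 for Psrc1 and -0.39 for AK156771. Without scaling, where Psrc1 failed the filter on variation and 4 genes were tested, the counts were 0, 1, 3, 1 and 2, and 0 at all 5 days. With normexp they were 0, 0, 1, 0 and 1, and 0 at all 5 days, with Crip2 at -0.49 at day 4, both with the filter on variation, which left Crip2 alone to be tested, and, in a setting chosen after seeing the data, without it. Where probes had to be well above background on 75% of arrays, 3 of the 5 genes were tested and all 3 were called at each day and at all 5 days. Differences between days in control mice were passed by 1 gene on the 75th percentile, the median of detected probes and quantile normalization, 5 on spike-in probes, and 0 with normexp (either filter) or the slide as random block, against 2. In 90Sr mice the counts were 4 with the reference array and with quantile normalization, 5 on spike-in probes, 1 with the stricter background filter, and 0 with normexp and with the slide as random block, against 2. The causes of these changes were not tested. The 6 pathway lists had 33 gene-day calls higher and 88 lower, against 74 and 32 on the 75th percentile, 79 and 28 on the median of detected probes, 12 and 144 with the reference array, 2 and 219 on spike-in probes, 4 and 199 without scaling, and 48 lower with quantile normalization. With the replicate number as a block, 3 of the 5 genes were called at all 5 days and 23 of 25 calls held. The labels do not say that the numbers pair the mice. With the slide as a block 2 genes were called at day 7 and 0 on either of days 25 and 30, and no such fit could be made for day 4. Leaving out each array, the genes called numbered 4 to 5 for days 4, 7 and 30, 5 for day 9, and 3 to 5 both for day 25 and over all 5 days, the lowest without 90Sr replicate 5 of day 25. Those passing between days numbered 1 to 2 in control and 1 to 5 in 90Sr mice. Signal near background limits Gng13 most.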
